A study of Mus musculus with 4 samples.

Results

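The mitochondrial carrier family and the uncoupling proteins were followed in 3T3-L1 cells, mouse preadipocytes of an established line, which an induction mixture drives toward fat-storing adipocytes. Members were taken by name: every array probe whose platform symbol was a numbered Slc25a gene or Ucp1, Ucp2 or Ucp3, with Slc25a1 and Slc25a20 left out. This gave 48 of the 26423 probes of the array, for 43 of the 17742 named genes, and 5 of these had more than 1 probe. All samples were given insulin at 1 µg/ml, dexamethasone at 1 µM and isobutylmethylxanthine at 0.5 mM for 48 hours. By their source names, the 2 control samples had this mixture alone and the 2 berberine samples had 13.47 µM berberine with it, and each sample was read on 1 array. Berberine is a plant alkaloid known to inhibit respiratory complex I. The comparison asks how it changed expression of these genes during induced differentiation. The labels do not say whether the samples of a group came from separate cultures, so p-values measure an array-to-array spread that may be technical.

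Carriers of this family are small proteins of the inner mitochondrial membrane, each built from repeats of a common fold, that exchange metabolites between the cytosol and the matrix. Some move ATP, phosphate, carboxylic acids, amino acids, cofactors or iron. The uncoupling proteins belong to the same family, and Ucp1 lets protons back into the matrix so that brown fat releases heat. In differentiating fat cells, carboxylate carriers are known for passing carbon and reducing power between mitochondria and cytosol for lipid synthesis.

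Values are quantile-normalized log2 intensities unless stated, changes are berberine minus control, and "rose" or "fell" means an adjusted p of at most 0.05 in limma's moderated test over all 26408 fitted probes. A fold is 2 raised to the log2 change. With 2 arrays against 2, the lowest two-sided p of an exact permutation test is 0.333, so the calls rest on limma's pooled spread. The floor, the 25th percentile of all normalized values, lay at 6.57 on the log2 scale, and a probe under it is treated as giving no readable level. Intensities of different probes are not compared, because probes bind differently.

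The largest falls among the members were at the carboxylate carriers Slc25a10 and Slc25a11, the pyrimidine nucleotide carrier Slc25a36, the aspartate/glutamate carrier Slc25a12 and Slc25a30. Slc25a13, the paralog of Slc25a12, had the largest rise (log2 change 1.41). Both mitoferrins and both glutathione carriers also rose, but the glutathione carrier Slc25a39 did not pass in the values as deposited. Rises were less secure than falls when a berberine array was left out. Of the 48 member probes 12 rose, 13 fell and 23 did not pass, which is 52.1% called, against 44.8% of all probes. Rises made up 25% of the members (27.1% of all probes rose) and falls 27.1% (17.7% of all probes fell). With a change of at least 2-fold added, 16 members or 33.3% were called, against 22% of all probes. Of these 8 rose and 8 fell, 16.7% each way, against 10.8% and 11.1% of all probes. The groups did not overlap at 83.3% of the member probes, against 74.8% of all probes. Both berberine arrays lay above both control arrays at 23 of the 48 members, against 46.6% of all probes (12295 of 26408), which is a close share. They lay below them at 17 of the 48, against 28.2% (7449 of 26408). In the plot of all probes, the changes of members lie within the range of the rest of the array.

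**Figure D1:**
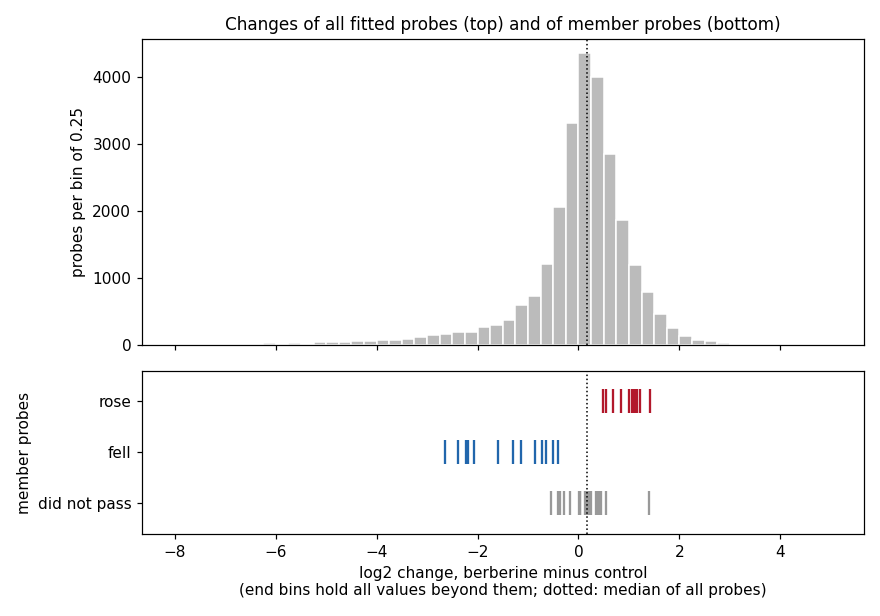
Histogram of the log2 change (berberine minus control) of the 26408 fitted probes, above the changes of the 48 member probes split into those that rose, fell or did not pass. The members ran from -2.65 to 1.41, and the dotted line marks the median of all probes at 0.17.

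Directions depended in part on how the arrays were scaled. Across all probes the log2 change had a median of 0.17 under quantile normalization. It was -0.05 for the values as deposited, 0.52 when arrays were centred on their medians and 0.26 when they were scaled on their 75th percentiles. For the member probes the same medians were 0.18, 0.02, 0.59 and 0.33. The split of 12 rises and 13 falls became 6 and 12 with the values as deposited, 21 and 7 with centred arrays, and 11 and 12 with the 75th percentile. Falls thus made up 52% of the called members after quantile normalization, 66.7% as deposited, 25% with centred arrays and 52.2% with the 75th percentile. Over all probes the matching shares of falls were 39.5%, 64.2%, 23.6% and 39.9%. Of the 25 calls, 13 passed in all of these scalings, namely the falls of Slc25a10 (both probes), Slc25a11, Slc25a12, Slc25a30, Slc25a33 and Slc25a36 and the rises of Slc25a13, Slc25a22, Slc25a24, Slc25a28, Slc25a37 and Slc25a40. The rises were also less secure against the loss of a berberine array. None of the 12 passed without berberine replicate 1, and without berberine replicate 2 only Slc25a22 and Slc25a28 did, whereas 8 and 7 of the 13 falls passed. Over all probes, 1867 and 2031 rose without these arrays, against 7164 with all arrays, and 2472 and 2590 fell, against 4674, so the greater loss of rises was array-wide.

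**Figure D2:**
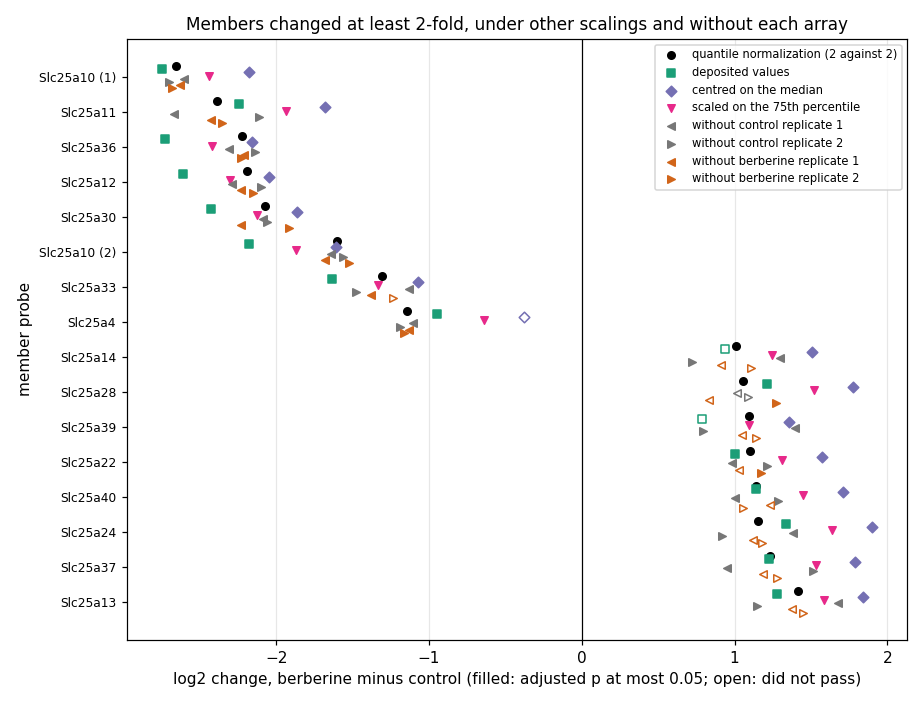
Log2 change (berberine minus control) of the 16 member probes changed at least 2-fold, under 4 scalings and with each array left out. Filled symbols passed adjusted p of 0.05 and open ones did not; every symbol lies on its gene's side of 0, but the berberine leave-outs of most rises are open.

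Markers of fat cells moved strongly in the same arrays. For the counts of markers below, 30% of all 17734 genes rose and 18.2% fell, each gene by its brightest probe. Of 12 mature adipocyte markers 10 fell and 1 rose (Lipe), Retn did not pass, and the summed normalized intensity of the list was 737571 to 745001 on the control arrays and 48625 to 50095 on the berberine arrays. All 9 measured preadipocyte and fibroblast markers lay above the floor in both groups. Their sum was 275771 to 290061 in control and 241395 to 262493 with berberine. Vim, which did not pass, made up most of this sum on each array, at 17.08 and 17.34 in control and 17.08 and 17.16 with berberine. Of the others 4 rose, namely Col1a1 (2.81-fold), Pdgfrb (2.06-fold), Itgb1 (1.87-fold) and Cd34 (1.70-fold). Another 3 fell, namely Dlk1 (3.09-fold), Pdgfra (1.99-fold) and Col3a1 (1.79-fold), and Eng did not pass. Among macrophage markers 2 of 7 fell and 1 rose, with a sum of 10508 to 11718 in control and 3770 to 3846 with berberine, and the defining marker Adgre1 lay under the floor. Cd14 made up most of this sum, at 9038 to 10450 in control and 2466 to 2491 with berberine, and the other 6 markers summed to 1268 to 1470 in control and 1304 to 1355 with berberine. The sums of 5 skeletal muscle markers (2049 to 2277 and 3342 to 3457, 2 rose, Ckm under the floor) and 6 endothelial markers (1191 to 1374 and 1950 to 2111, 4 rose) were higher with berberine. The part of any of these shifts in the changes of the carriers was not tested. In such bulk samples, fewer cells of a type and less RNA per cell cannot be told apart.

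Sequences upstream of 7 members that changed at least 2-fold are given to show what these promoters hold. RefSeq's promoter table (GRCm38.p6) matched 34 of the 43 member genes. The 4 largest falls and all 3 rises were shown among genes with both group means above the floor and a listed start no more than 30 bases inside the gene's annotated end. Such a start was listed for 22 member genes, and for 8 of the 14 that changed at least 2-fold with both means above the floor. Slc25a11, Slc25a13, both mitoferrins and both glutathione carriers had none, so their promoters are not shown. Each line gives the 250 bases before that start, 5′ to 3′ on the gene's strand, and capitals mark the letters of searched motifs found on either strand. Slc25a10, Slc25a12, Slc25a36 and Slc25a33 fell; Slc25a24, Slc25a22 and Slc25a14 rose.
Slc25a10 (chr11:120491587-120491836, plus strand): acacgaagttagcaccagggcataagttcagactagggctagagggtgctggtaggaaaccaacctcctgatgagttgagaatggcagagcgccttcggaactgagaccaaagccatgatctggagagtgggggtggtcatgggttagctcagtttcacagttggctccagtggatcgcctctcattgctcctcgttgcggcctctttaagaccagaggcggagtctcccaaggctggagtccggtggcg
Slc25a12 (chr2:71367756-71368005, minus strand): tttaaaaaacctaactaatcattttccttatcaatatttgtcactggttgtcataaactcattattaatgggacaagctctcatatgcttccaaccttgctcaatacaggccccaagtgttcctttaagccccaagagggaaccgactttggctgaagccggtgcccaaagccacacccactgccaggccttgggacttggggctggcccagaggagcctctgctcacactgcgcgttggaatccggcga
Slc25a36 (chr9:97111042-97111291, minus strand): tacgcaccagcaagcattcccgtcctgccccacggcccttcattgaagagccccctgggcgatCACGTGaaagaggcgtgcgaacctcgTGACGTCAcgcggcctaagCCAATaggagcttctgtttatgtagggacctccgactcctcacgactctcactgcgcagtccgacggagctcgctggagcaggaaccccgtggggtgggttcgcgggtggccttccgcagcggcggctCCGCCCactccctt
Slc25a33 (chr4:149774268-149774517, minus strand): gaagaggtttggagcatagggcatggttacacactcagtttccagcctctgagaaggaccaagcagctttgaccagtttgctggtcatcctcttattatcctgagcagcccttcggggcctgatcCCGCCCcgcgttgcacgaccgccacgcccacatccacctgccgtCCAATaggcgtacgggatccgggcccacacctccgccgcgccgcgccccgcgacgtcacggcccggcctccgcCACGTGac
Slc25a24 (chr3:109122899-109123148, plus strand): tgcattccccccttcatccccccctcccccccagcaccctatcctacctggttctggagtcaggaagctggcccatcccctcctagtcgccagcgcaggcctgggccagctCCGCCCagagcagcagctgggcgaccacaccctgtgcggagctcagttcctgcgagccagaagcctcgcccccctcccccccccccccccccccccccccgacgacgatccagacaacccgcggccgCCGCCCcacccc
Slc25a22 (chr7:141437875-141438124, minus strand): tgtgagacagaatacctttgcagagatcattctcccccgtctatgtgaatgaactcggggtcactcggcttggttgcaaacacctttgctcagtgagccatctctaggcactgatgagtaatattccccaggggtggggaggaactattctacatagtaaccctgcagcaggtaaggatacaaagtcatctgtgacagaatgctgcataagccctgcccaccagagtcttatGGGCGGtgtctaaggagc
Slc25a14 (chrX:48623198-48623447, plus strand): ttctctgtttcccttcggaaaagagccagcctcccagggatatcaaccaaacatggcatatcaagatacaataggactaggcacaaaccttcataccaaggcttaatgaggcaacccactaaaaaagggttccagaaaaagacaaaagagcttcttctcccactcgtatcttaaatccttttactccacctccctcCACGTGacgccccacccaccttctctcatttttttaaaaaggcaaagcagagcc
Shares are of all 32851 starts in the table, over windows of the same length. The GC box bound by Sp1 (GGGCGG) was in 32.7% of them, the NF-Y site (CCAAT) in 33.8%, and the E-box (CACGTG) in 6.02%. The cAMP response element (TGACGTCA) was in 1.55%, and the palindromic core of the NRF-1 site in 3.74%. The GABP site (CCGGAAG) was in 6.91%, a site of estrogen-related receptors (AAGGTCA) in 4.08%, and a composite site of ATF4 with C/EBP factors (TGATGNAA) in 3.45%. The windows of Slc25a36 and Slc25a33 each held a GC box, an NF-Y site and an E-box, and that of Slc25a36 also held the cAMP response element. The GC box was also in Slc25a24 and Slc25a22 and the E-box in Slc25a14. Slc25a10 and Slc25a12 held none of these letters in this window. No searched motif overlapped another in these windows. A match is a description of letters, and the arrays do not show whether any factor bound there.

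Among the members described, the brighter Slc25a10 probe and Slc25a11, both for carboxylate carriers, had the largest falls. Slc25a10, the dicarboxylate carrier that exchanges malate or succinate for phosphate, read 13.76 and 13.66 in control and 11.03 and 11.08 with berberine at its brighter probe. The deposited intensities behind these values were 14967 and 10751 in control and 1741 and 2055 with berberine. On the normalized scale this was a 6.30-fold fall (log2 change -2.65 with SE 0.12, adjusted p = 0.000215). Its dimmer probe read 9.89 and 9.97 in control and 8.41 and 8.25 with berberine, a 3.03-fold fall (adjusted p = 0.000959). Both probes of Slc25a10 put both berberine arrays below both control arrays, and both calls held under every alternative tried.

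Slc25a11, the oxoglutarate carrier that swaps 2-oxoglutarate for malate, read 14.86 and 15.41 in control and 12.78 and 12.71 with berberine. It fell 5.24-fold (log2 change -2.39, SE 0.21, adjusted p = 0.00127), a gap several times the distance between the control arrays. Slc25a21, a carrier of longer oxodicarboxylates, gave no readable change. Its arrays read 5.83 and 6.63 in control and 6.15 and 7.13 with berberine, so the groups overlapped around the floor (adjusted p = 0.473).

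The aspartate/glutamate carriers, which move aspartate out of the matrix for the malate-aspartate shuttle, changed in opposite directions. Slc25a12 (aralar) read 11.46 and 11.65 in control and 9.40 and 9.32 with berberine. This was a 4.57-fold fall (log2 change -2.19 with SE 0.13, adjusted p = 0.000448). Slc25a13 (citrin) read 11.37 and 10.84 in control and 12.55 and 12.48 with berberine. This was a 2.66-fold rise (log2 change 1.41 with SE 0.21, adjusted p = 0.0055). The rise of Slc25a13 missed the threshold without berberine replicate 1 (adjusted p = 0.0726) or 2 (adjusted p = 0.065). Within each array the log2 ratio of Slc25a12 to Slc25a13 does not depend on scaling by a factor. In the deposited values, set against its control mean, it was -0.31 and 0.31 in control and -3.90 and -3.87 with berberine. The ratio of these paralogs thus changed by -3.88 on the log2 scale as deposited and by -3.60 after quantile normalization.

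The glutamate carriers were also measured. Slc25a22, which brings glutamate into the matrix, read 11.29 and 11.52 in control and 12.58 and 12.43 with berberine, a 2.14-fold rise (adjusted p = 0.00409) that missed the threshold without berberine replicate 1 (adjusted p = 0.061). Slc25a18, its paralog, lay under the floor in both groups. Over the 8 probes for carboxylate, aspartate and glutamate carriers, 4 fell and 2 rose, all of them at least 2-fold, where 11.1% of all probes fell and 10.8% rose by that rule. Slc25a10 counts with 2 probes among these falls. The probes had a median log2 change of -0.68 against 0.17 for all probes, but none lay near that median. It falls between the dimmer Slc25a10 probe (-1.60) and Slc25a18 (0.24). With the dimmer Slc25a10 probe left out, the middle value is that of Slc25a18, which lay under the floor.

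**Figure D3:**
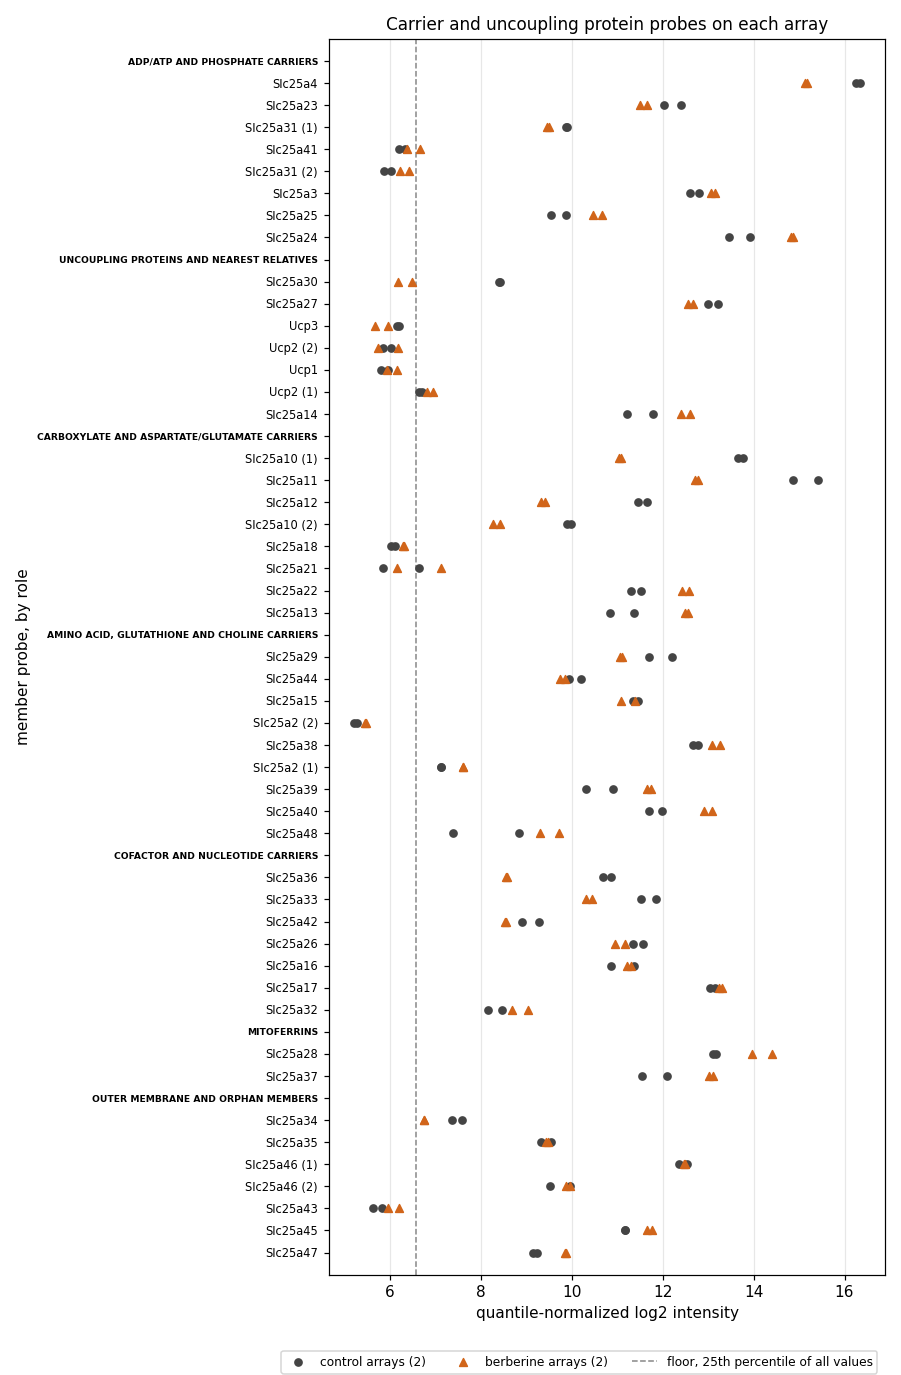
Quantile-normalized log2 intensity of the 48 member probes on each of the 4 arrays, grouped by role, with control arrays as circles, berberine arrays as triangles and the floor of 6.57 as a dashed line. Both probes of Slc25a10, Slc25a11, Slc25a12 and Slc25a36 show berberine arrays far to the left of control, and the probes of Ucp1, Ucp2 and Ucp3 crowd around the floor.

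Among carriers of ATP and phosphate, the ADP/ATP carrier Slc25a4 fell and the phosphate carrier was not called. Slc25a4, which exchanges cytosolic ADP for matrix ATP, read 16.34 and 16.26 in control and 15.14 and 15.17 with berberine. It fell 2.21-fold (log2 change -1.15, SE 0.12, adjusted p = 0.00206), with no overlap between the groups. The fall did not pass with arrays centred on their median (log2 change -0.38, adjusted p = 0.0743). Slc25a3, which imports the phosphate used for ATP synthesis, read 12.79 and 12.59 in control and 13.15 and 13.07 with berberine (log2 change 0.42, SE 0.14, adjusted p = 0.059). It passed after centring (adjusted p = 0.00814, log2 change 1.10) and after scaling on the 75th percentile (adjusted p = 0.0186, log2 change 0.84). It also passed with log2(value + 16) and with the filter on dim probes, but not as deposited (adjusted p = 0.211). The ratio of Slc25a4 to Slc25a3 within the arrays changed by -1.48 on the log2 scale as deposited and by -1.57 after quantile normalization. Slc25a5, the other widely used ADP/ATP carrier, was not analysed here.

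Slc25a31, an ADP/ATP carrier known from testis, had probes that went apart. The brighter one read 9.90 and 9.87 in control and 9.46 and 9.49 with berberine (log2 change -0.41, adjusted p = 0.0428), a call lost with any array left out. The dimmer one lay under the floor in both groups and had the opposite sign (log2 change 0.38, adjusted p = 0.0823).

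The calcium-regulated ATP-Mg/phosphate carriers, which adjust the matrix pool of adenine nucleotides, did not move together. Slc25a24 read 13.92 and 13.46 in control and 14.87 and 14.81 with berberine. This was a 2.22-fold rise (log2 change 1.15 with SE 0.19, adjusted p = 0.00799). Slc25a25 rose 1.80-fold (adjusted p = 0.0147), and Slc25a23 fell 1.55-fold (adjusted p = 0.0384). The call of Slc25a23 was lost in the 3 other scalings, and that of Slc25a25 in the deposited values and after scaling on the 75th percentile. All 3 were lost without either berberine array. The within-array ratio of Slc25a23 to Slc25a24 changed by -2.07 on the log2 scale as deposited, with -0.36 and 0.36 in control and -2.01 and -2.13 with berberine around the control mean. Slc25a41, a further member of this branch, had both group means under the floor.

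The probes of the uncoupling proteins proper lay under the floor or barely above it, and none passed. Ucp1 read 5.79 and 5.95 in control and 5.93 and 6.14 with berberine, under the floor on every array (adjusted p = 0.396). Ucp3, found mostly in muscle, was also under the floor throughout, at 6.20 and 6.15 in control and 5.95 and 5.66 with berberine (adjusted p = 0.105). For Ucp2, which is widely expressed, the brighter probe lay barely above the floor at 6.64 and 6.69 in control and 6.94 and 6.82 with berberine (log2 change 0.21, adjusted p = 0.227). Its dimmer probe read 5.83 and 6.01 in control and 5.73 and 6.18 with berberine (adjusted p = 0.908). No fold is given for these genes, and the arrays do not tell low expression from a poor probe.

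Relatives of the uncoupling proteins were readable and went both ways. Slc25a30 (KMCP1) read 8.39 and 8.42 in control and 6.49 and 6.18 with berberine (log2 change -2.07, SE 0.15, adjusted p = 0.000753). Because its berberine mean lay under the floor, the fall is given as at least 3.56-fold, the control mean over the floor, and its call held under every alternative tried. Slc25a14 (UCP5) read 11.78 and 11.20 in control and 12.60 and 12.40 with berberine, a 2.01-fold rise (adjusted p = 0.0212). As deposited it missed the threshold (adjusted p = 0.0775), and so it did when either berberine array was dropped. Slc25a27 (UCP4) fell 1.42-fold, from 13.00 and 13.21 to 12.66 and 12.55 (adjusted p = 0.0391). The fall of Slc25a27 was called in none of the other scalings, and its log2 change turned to 0.16 after centring.

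Carriers of pyrimidine nucleotides fell. Slc25a36 read 10.69 and 10.86 in control and 8.54 and 8.56 with berberine. This was a 4.67-fold fall (log2 change -2.22 with SE 0.13, adjusted p = 0.00039) that held under every alternative tried. Slc25a33 read 11.86 and 11.51 in control and 10.45 and 10.31 with berberine. This was a 2.47-fold fall (log2 change -1.31 with SE 0.17, adjusted p = 0.00364), lost without berberine replicate 2 (adjusted p = 0.0563). Both supply nucleotides for the synthesis of mitochondrial DNA and RNA, and at both the groups lay apart. The other 5 cofactor carriers did not pass: Slc25a42 (coenzyme A) at -0.55, Slc25a26 (S-adenosylmethionine) at -0.41, Slc25a16 at 0.14, the peroxisomal Slc25a17 at 0.18 and Slc25a32 (folate) at 0.55 on the log2 scale. Slc25a42 was nearest the threshold (adjusted p = 0.0548). It passed as a fall in the deposited values (adjusted p = 0.0263) and after scaling on the 75th percentile (adjusted p = 0.0202), but not after centring (adjusted p = 0.0572).

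Both mitoferrins, which bring iron into the matrix for heme and iron-sulfur clusters, rose. Slc25a37 (mitoferrin-1) read 11.54 and 12.10 in control and 13.10 and 13.01 with berberine. This was a 2.34-fold rise (log2 change 1.23 with SE 0.22, adjusted p = 0.00972). Slc25a28 (mitoferrin-2) read 13.10 and 13.17 in control and 14.41 and 13.97 with berberine. This was a 2.07-fold rise (log2 change 1.05 with SE 0.18, adjusted p = 0.00963). Neither pair of groups overlapped, and both rises passed in every scaling. Slc25a37 missed the threshold without either berberine array, and Slc25a28 without either control array (adjusted p = 0.0732 and 0.0667) or berberine replicate 1 (adjusted p = 0.066).

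Glutathione carriers rose in parallel. Slc25a39 read 10.90 and 10.30 in control and 11.74 and 11.65 with berberine. This was a 2.13-fold rise (log2 change 1.09 with SE 0.23, adjusted p = 0.0165). Slc25a40 read 11.70 and 11.99 in control and 12.90 and 13.08 with berberine. This was a 2.21-fold rise (log2 change 1.14 with SE 0.16, adjusted p = 0.00474). These paralogs bring glutathione, the main thiol antioxidant, into the matrix. Slc25a39 missed the threshold in the deposited values (adjusted p = 0.133), and both missed it without either berberine array.

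The amino acid carriers moved less. Slc25a29, a carrier of basic amino acids, fell 1.83-fold (adjusted p = 0.0217), a call lost after centring (adjusted p = 0.0544) and without either berberine array. Slc25a2, an ornithine carrier, rose 1.40-fold at its brighter probe, from 7.12 on both control arrays to 7.61 on both berberine arrays (adjusted p = 0.0255). That call was lost in the deposited values (log2 change 0.08), after scaling on the 75th percentile (adjusted p = 0.195) and without either berberine array. The dimmer probe of Slc25a2 lay under the floor. Slc25a15 (ornithine), Slc25a38 (glycine) and Slc25a44 (branched-chain amino acids) did not pass, at log2 changes of -0.16, 0.44 and -0.28. Slc25a38 was closest (adjusted p = 0.0521). It passed after centring (adjusted p = 0.00755) and after scaling on the 75th percentile (adjusted p = 0.0182), but not as deposited (adjusted p = 0.186). Slc25a48, a choline carrier, had the widest control pair among the members. It read 8.84 and 7.39 in control and 9.30 and 9.72 with berberine, and its log2 change of 1.40 (SE 0.50) did not pass (adjusted p = 0.0761) but did without control replicate 1 (adjusted p = 0.0225).

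Of the members without a settled substrate or outside the inner membrane, none changed 2-fold. Slc25a34 fell 1.66-fold (adjusted p = 0.0123), and Slc25a47 and Slc25a45 rose 1.61-fold and 1.45-fold (adjusted p = 0.00963 and 0.0215). These calls were lost without either berberine array, and the rises also in the deposited values. The fall of Slc25a34 was also lost after centring (adjusted p = 0.0637). The rise of Slc25a47 was also lost after scaling on the 75th percentile (adjusted p = 0.1595). Slc25a46, an outer-membrane protein involved in mitochondrial shape, did not pass at either probe. Its brighter probe read 12.35 and 12.54 in control and 12.48 and 12.47 with berberine (log2 change 0.04), and the other read 9.51 and 9.95 in control and 9.95 and 9.87 with berberine (0.18). Slc25a35 was at 0.02 and Slc25a43 lay under the floor. In all, 39 member probes lay above the floor on both arrays of at least 1 group.

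**Figure D4:**
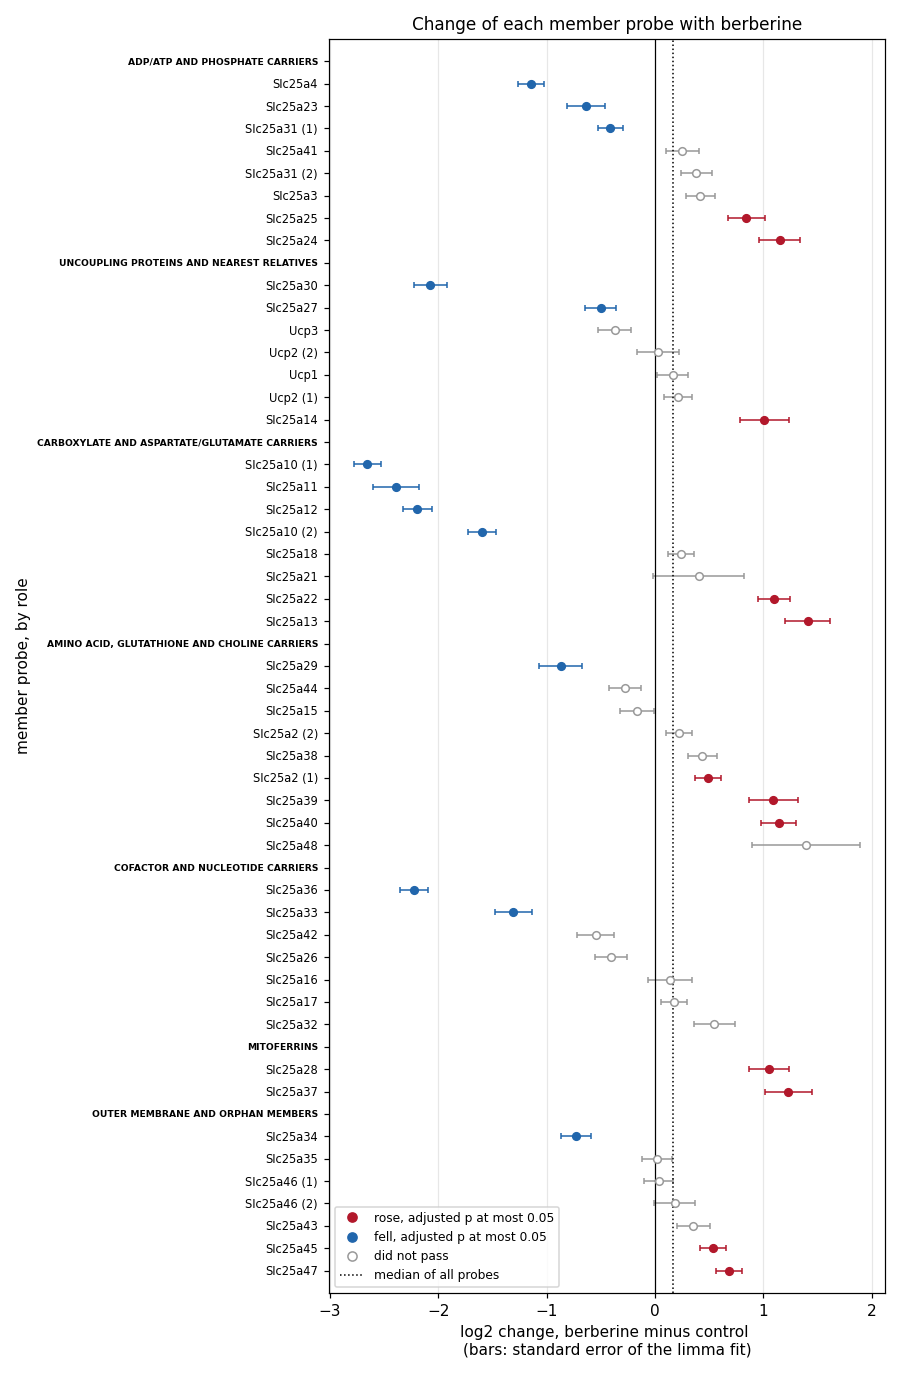
Log2 change (berberine minus control) of each member probe with the standard error of the limma fit, grouped by role, filled where adjusted p was at most 0.05. Blue falls reach -2.65 at Slc25a10, red rises reach 1.41 at Slc25a13, and the dotted line is the median of all probes at 0.17.

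Other genes of mitochondrial exchange, listed by role, also went both ways. Of 44 genes measured, each by its brightest probe, 10 rose and 11 fell, or 47.7% called, against 48.2% of all 17734 genes; 30% of all genes rose and 18.2% fell. Of the enzymes that work with the carriers in redox shuttles, Gpd1, the cytosolic glycerol-3-phosphate dehydrogenase of adipocytes, fell 96.95-fold from 15.70 to 9.10 (adjusted p = 5.77e-05). Its mitochondrial partner Gpd2 rose 1.94-fold (adjusted p = 0.0101), which did not pass as deposited or when either berberine array was dropped. In the malate-aspartate shuttle, the cytosolic transaminase Got1 rose 2.54-fold (adjusted p = 0.0244), which did not pass without either control array or berberine replicate 1. The cytosolic Mdh1 fell 1.61-fold (adjusted p = 0.0119), which did not pass when either berberine array was dropped, and the mitochondrial Got2 did not pass (log2 change -0.02). Mdh2 fell 1.31-fold with adjusted p = 0.0492, a call lost in each of the other scalings.

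In the list of other channels and carriers, 4 of 15 genes rose and 2 fell, where 30% of all genes rose and 18.2% fell. Mtch2, an outer-membrane relative of the carriers, fell 5.3-fold (adjusted p = 0.000444), whereas its paralog Mtch1 was at 0.44 on the log2 scale (adjusted p = 0.073). Tspo, an outer-membrane protein linked to cholesterol and porphyrin handling, fell 2.69-fold (adjusted p = 0.00475), lost without control replicate 2. The serine transporter relative Sfxn3 rose 2.10-fold (adjusted p = 0.00765), lost without either berberine array. Of the porins, through which metabolites cross the outer membrane, Vdac1 and Vdac2 did not pass and Vdac3 rose 1.46-fold (adjusted p = 0.0244), lost in the deposited values and with any array left out. Mpc2, a subunit of the mitochondrial pyruvate carrier, was at 0.19 (adjusted p = 0.291).

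Of 7 calcium transport genes of mitochondria 3 rose and 2 fell, where 30% of all genes rose and 18.2% fell. Mcub, an inhibitory subunit of the calcium uniporter, rose 3.30-fold (adjusted p = 0.0031), lost without berberine replicate 1, and Micu3, a gatekeeper, rose 2.58-fold (adjusted p = 0.00237). Smdt1 (EMRE), which the uniporter needs for transport, fell 3.28-fold (adjusted p = 0.00233), and Slc8b1, the sodium/calcium exchanger, fell 5.1-fold (adjusted p = 0.000321). The pore subunit Mcu did not pass (log2 change -0.42, adjusted p = 0.154). None of the 4 measured carnitine shuttle enzymes passed, where 48.2% of all genes did, and Cpt1a came closest (log2 change 0.58, adjusted p = 0.056).

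Thermogenic genes were mostly dim. Of 11 measured, 1 rose and 4 fell, where 30% of all genes rose and 18.2% fell. Prdm16, Dio2, Elovl3 and Ckmt2 lay under the floor in both groups, including the called Prdm16. Cox8b, a cytochrome oxidase subunit of brown fat, lay under the floor with berberine, a fall of at least 8.1-fold (adjusted p = 0.000319) and Pank1, a coenzyme A synthesis enzyme, fell 2.28-fold (adjusted p = 0.00343). Acot2, a mitochondrial acyl-CoA thioesterase, rose 2.37-fold (adjusted p = 0.00155). Ppargc1a, the coactivator of mitochondrial biogenesis, read 6.96 in control and lay under the floor with berberine (6.22), a fall of at least 1.31-fold. Its call (adjusted p = 0.033) was lost in every other scaling and with any array left out.

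**Figure D5:**
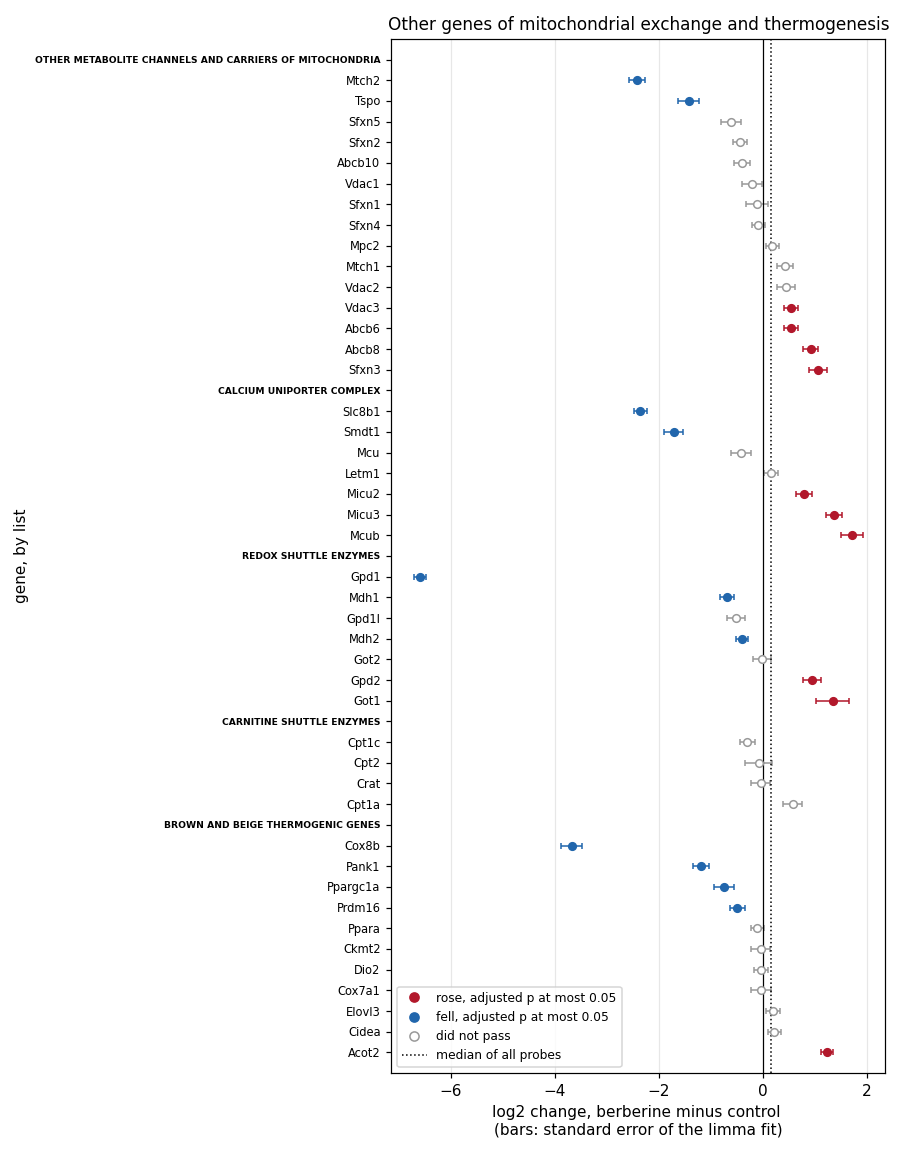
Log2 change (berberine minus control) of 44 other genes of mitochondrial exchange and thermogenesis, with the standard error of the limma fit, filled where adjusted p was at most 0.05. Gpd1 lies far to the left at -6.60, and each list apart from the carnitine shuttle enzymes holds both rises and falls.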

How the data were processed

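RNA of 4 samples carried Cy5 on arrays read in a single colour, per the labels. The deposited table holds each probe's intensity on a linear scale, as whole numbers with a few below 0. Background correction and scaling by the authors: not given in the sources used here. The zero point and scale of the intensities are thus unknown. Array medians were 350 to 423 in control and 237 to 280 with berberine. Leaving out 15 probes that had an intensity of 0 or less, the log2 intensities of 26408 probes were quantile-normalized and fitted with limma 3.58.1 in R 4.3.3 (lmFit, eBayes, no covariate), with Benjamini-Hochberg adjustment over all probes. The fit had 2 residual and 2.89 prior degrees of freedom and assumes equal spread in both groups, although replicate arrays lay a median 0.20 apart in control and 0.12 with berberine. With 4 arrays the precision is low.

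Symbols came from the platform annotation, updated through RefSeq's mouse gene table: 18213 probes matched apart from case, 2126 through an older symbol, 38 kept theirs and 6046 were unnamed here. The treatment protocol text names berberine for every sample, controls included; groups came from the titles, and the source names and descriptions give berberine for the berberine samples alone. The members and lists were chosen with earlier results of these data known, and the choice of promoters and motifs followed the values. Values on every array were to be given for 10 fixed genes, for members that changed at least 2-fold above the floor and for genes with several probes; companion genes were to be named where they changed at least 2-fold, and others were named after their values were seen. The fit was tested on simulated data with planted rises and falls of like sizes and the same spread in both groups. That setting does not test which scaling is right for these arrays. Alternatives were other scalings, log2(value + 16), a filter on dim probes, an intensity trend with robust prior, the replicate block, averaged probes, a 2-fold rule and each array left out.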

Additional observations from a re-analysis of the deposited data

How the results depend on the processing

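The number of member probes past the threshold was 25. It was 16 with at least a 2-fold change added (33.3%, against 22% of all probes) and 18 as deposited (37.5%, against 25.3%). It was 28 with centred arrays (58.3%, against 53%) and 23 with the 75th percentile (47.9%, against 35.1%). With single arrays left out it was 8 to 24, where the group of 1 array takes its spread from the other; without berberine replicate 1 or 2 it was 8 and 9. Over all probes 11838 passed, 6687 as deposited and 5806 with the 2-fold rule; with single arrays left out it was 4339 to 10772. For companion genes the count was 21, 12 with the 2-fold rule and 9 to 19 with each array left out. The median log2 change of members, 0.18, was 0.022 as deposited, 0.59 with centred arrays and 0.33 with the 75th percentile. Called members kept their sign with 1 exception, Slc25a27 after centring (0.16); among the other genes the called Mdh2 turned to 0.23 after centring and the macrophage marker Csf1r to a negative change as deposited. By 1 probe per gene 24 of the 43 member genes passed, where 48.2% of all 17734 genes did. With probes averaged 25 members passed, 22 of them shared. The cause of these shifts was not tested.

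Same-numbered arrays showed no shared deviation, since their deviations from the group means correlated at 0.0035 over probes. This does not show whether same-numbered samples were handled together. With the replicate block 27 member probes (56.2%) passed, against 48.3% of all probes. Slc25a32, Slc25a42 and Slc25a48 came in and the brighter probe of Slc25a31 dropped out. The block leaves fewer residual degrees of freedom than the 2 of the main fit, so its p-values rest mostly on spread pooled over probes. Slc25a48 passed there (limma adjusted p = 0.000789, against 0.0761 in the main fit) although its control arrays lay 1.45 apart. Of the 25 calls, 6 held under every alternative, all of them falls.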

Other observations

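Further family members stood on the array under older symbols and so were not selected by name. Slc25a51, the mitochondrial NAD carrier, read 12.61 and 13.19 in control and 13.59 and 13.61 with berberine (log2 change 0.70, limma adjusted p = 0.0548), with no overlap between the groups. It passed in the 3 other scalings (adjusted p = 0.0423 as deposited, 0.00579 with centred arrays and 0.018 with the 75th percentile), with the replicate block (adjusted p = 0.00884) and under 4 further alternatives, but not without either berberine array (adjusted p = 0.222 and 0.223) or control replicate 1 (adjusted p = 0.0589). Slc25a53, a carrier of unknown substrate, read 6.64 and 6.63 in control and 7.94 and 8.0 with berberine, a rise by 1.34 on the log2 scale (adjusted p = 0.00123) that held under every alternative tried; its control values lay barely above the floor of 6.57. Slc25a54 lay under the floor in both groups.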
